A study of Mus musculus with 8 samples.

Results

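Granins are acidic proteins stored with hormones in the dense-core granules of endocrine cells. Listed with them were the enzymes that cut prohormones into active peptides and the proteins that hold those enzymes in check. The 10 genes were Chga, Chgb, Scg2, Scg3, Scg5, Vgf, Pcsk1n, Pcsk1, Pcsk2 and Cpe. Every probe set whose platform annotation names one of these genes alone was taken, which gave 10 probe sets for 9 genes among 45101 in the value table. Pcsk2 was not analysed here. Of the 10 probe sets, 9 were detected on at least 4 of the 8 arrays and tested, 1 per gene. A second Cpe probe set was detected on 0 of 8 arrays and was not tested. The genes were chosen by name, with their GCRMA and signal differences between the strains on these arrays already known, so the adjusted p-values below come from a fit to all probe sets but give no independent evidence about the list.

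RNA was from pancreatic islets of AKR/J mice and of C57Bl/6J mice, inbred strains that both received a high-fat diet for 3 months. There were 4 samples per strain, and each held islet RNA from the pooled pancreases of 2 mice and was hybridised to its own Affymetrix mouse array. Arrays 1 to 4 are AKR/J, and arrays 5 to 8 are C57Bl/6J. The labels give no age or sex, so a difference in either cannot be told apart from strain. Mice on other diets are no part of the comparison, so each difference is between these groups on this diet. P-values measure the spread between pools, and the number of arrays limits the precision.

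In an islet cell, prohormones and granins enter the secretory pathway together and granins help to condense the cargo of the forming granule. Prohormone convertases then cut the precursors after pairs of basic residues, and carboxypeptidase E trims the basic residues left at the new ends. Granins are themselves precursors, cut by the same enzymes into smaller peptides. Several granin genes are known for a cyclic AMP response element, a binding site of CREB-family factors, near their start.

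All 16 tested markers of beta, alpha, delta and PP cells were detected on all 8 arrays. Markers of acinar cells and macrophages differed between the strains, and so did some endocrine markers. By GCRMA, all 13 tested acinar markers were lower in AKR/J. Their summed GCRMA intensity ran from 224713 to 265040 in AKR/J, against 382446 to 391466 in C57Bl/6J. With quantile-normalized per-array signals of MAS5 type, 7 of the 13 were lower in AKR/J and 0 higher (median log2 difference -0.40). Macrophage markers summed by GCRMA to between 1694 and 2196 in AKR/J, against between 3089 and 4101 in C57Bl/6J. By GCRMA, 6 of 9 were lower in AKR/J, and 5 with the MAS5-type signals. Of 7 beta cell markers, 2 were lower in AKR/J, Slc2a2 (1.47-fold, limma adjusted p = 0.0152) and Ucn3 (1.43-fold, limma adjusted p = 0.00559), and 5 did not pass (median log2 difference 0.01). Their summed intensity, most of it from Ins2 and Iapp, which did not pass, ran from 127693 to 137286 in AKR/J, against 120451 to 127650 in C57Bl/6J. Of 5 alpha cell markers, Ttr was higher, Slc38a5 was lower and 3 did not pass (median -0.39). Their sum ran from 76479 to 81780 in AKR/J, against 71164 to 74648 in C57Bl/6J. Most of this sum came from Gcg, which did not pass (log2 difference 0.01), and Ttr (0.26). The differences of Irx1, Irx2 and Slc38a5 were negative, so the sum does not describe the list as a whole. Ttr had 4 tested probe sets, of which only the brightest is given. None of 3 tested delta cell markers passed (median 0.07). Ppy, the PP cell marker, was 1.86-fold higher in AKR/J (limma adjusted p = 0.034). It also passed with the MAS5-type signals (log2 difference 0.77, limma adjusted p = 0.0274). By GCRMA it lost the call when any 1 of 6 arrays was left out. The part of these differences in the results below was not tested. In bulk RNA, fewer cells of a type and less RNA per cell cannot be told apart. The brightest probe sets stood higher in C57Bl/6J: the 99.9 percentile of the GCRMA values lay between 19746 and 20151 in AKR/J, against 21993 to 22991 in C57Bl/6J. That of the per-array signals lay between 11697 and 13461 in AKR/J, against 13899 to 16301 in C57Bl/6J.

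The sequences upstream of 5 of these genes are shown because each holds the core of a cyclic AMP response element, the letters TGACGT on either strand, printed in capitals. They are the 250 bases before the RefSeq start of Chgb (chr2:132781392-132781641, plus strand), Scg2 (chr1:79440027-79440276, minus strand), Pcsk1 (chr13:75089607-75089856, plus strand), Chga (chr12:102554691-102554940, plus strand) and Scg5 (chr2:113829092-113829341, minus strand), from RefSeq on build GRCm38.p6, which is the C57BL/6J sequence, read 5′ to 3′ on the strand of the gene.
Chgb: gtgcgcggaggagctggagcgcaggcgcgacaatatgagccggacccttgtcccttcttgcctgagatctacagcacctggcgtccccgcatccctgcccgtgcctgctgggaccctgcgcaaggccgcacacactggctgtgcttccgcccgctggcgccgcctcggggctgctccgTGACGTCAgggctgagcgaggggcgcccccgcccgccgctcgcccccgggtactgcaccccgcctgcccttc
Scg2: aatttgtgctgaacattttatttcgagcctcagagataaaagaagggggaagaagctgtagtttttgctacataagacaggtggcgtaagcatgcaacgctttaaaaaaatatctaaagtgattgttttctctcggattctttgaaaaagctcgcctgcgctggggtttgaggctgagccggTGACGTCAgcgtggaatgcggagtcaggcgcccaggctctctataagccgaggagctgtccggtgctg
Pcsk1: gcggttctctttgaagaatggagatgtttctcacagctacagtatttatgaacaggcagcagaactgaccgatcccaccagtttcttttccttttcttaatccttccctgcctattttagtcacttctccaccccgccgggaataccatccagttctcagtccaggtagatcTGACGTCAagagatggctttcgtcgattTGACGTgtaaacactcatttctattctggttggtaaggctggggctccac
Chga: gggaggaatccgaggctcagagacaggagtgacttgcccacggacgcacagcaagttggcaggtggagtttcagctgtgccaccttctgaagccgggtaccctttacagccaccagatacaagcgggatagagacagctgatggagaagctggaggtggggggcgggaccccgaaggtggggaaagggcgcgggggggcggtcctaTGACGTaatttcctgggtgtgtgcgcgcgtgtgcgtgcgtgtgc
Scg5: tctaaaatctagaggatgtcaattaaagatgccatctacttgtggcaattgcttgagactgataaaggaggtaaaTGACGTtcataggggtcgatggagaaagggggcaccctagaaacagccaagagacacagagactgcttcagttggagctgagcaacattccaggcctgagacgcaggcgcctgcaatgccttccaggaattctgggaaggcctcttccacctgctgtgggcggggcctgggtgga
Windows were at hand for 7 of the 9 measured genes, all but Vgf and Cpe. The full palindrome TGACGTCA was present in 3 of the 7, beginning 72 bases before the start in Chgb, 68 in Scg2 and 78 in Pcsk1. It was present in 1.55% of 32851 such mouse windows. The shorter TGACGT, which the palindrome contains on both strands, was present in 5 of the 7 and in 6.47% of all windows. In Chga it began 44 bases before the start, in Scg5 175 bases before it, and Pcsk1 had another copy at 50. Neither form was in the Scg3 or Pcsk1n window. A match describes these letters and is not a measured binding site.

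The comparison of the strains asked how the granins and processing genes differed between AKR/J and C57Bl/6J islets. By GCRMA, a method that corrects background and normalizes across arrays, 5 of the 9 genes were higher in AKR/J (Vgf, Scg5, Chgb, Scg2 and Scg3), 1 was lower (Chga) and 3 did not pass (Pcsk1n, Pcsk1 and Cpe) at an adjusted p under 0.05 by limma. Of all 10891 genes tested, 16.3% passed, 7.79% higher and 8.53% lower in AKR/J. The median log2 difference was 0.34 over the 9 genes and 0.00 over all genes. Arrays of the strains did not overlap for 6 of the 9 genes, and for 25.1% of all genes. The list was chosen with this contrast known, so nothing is read from these shares.

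**Figure D1:**
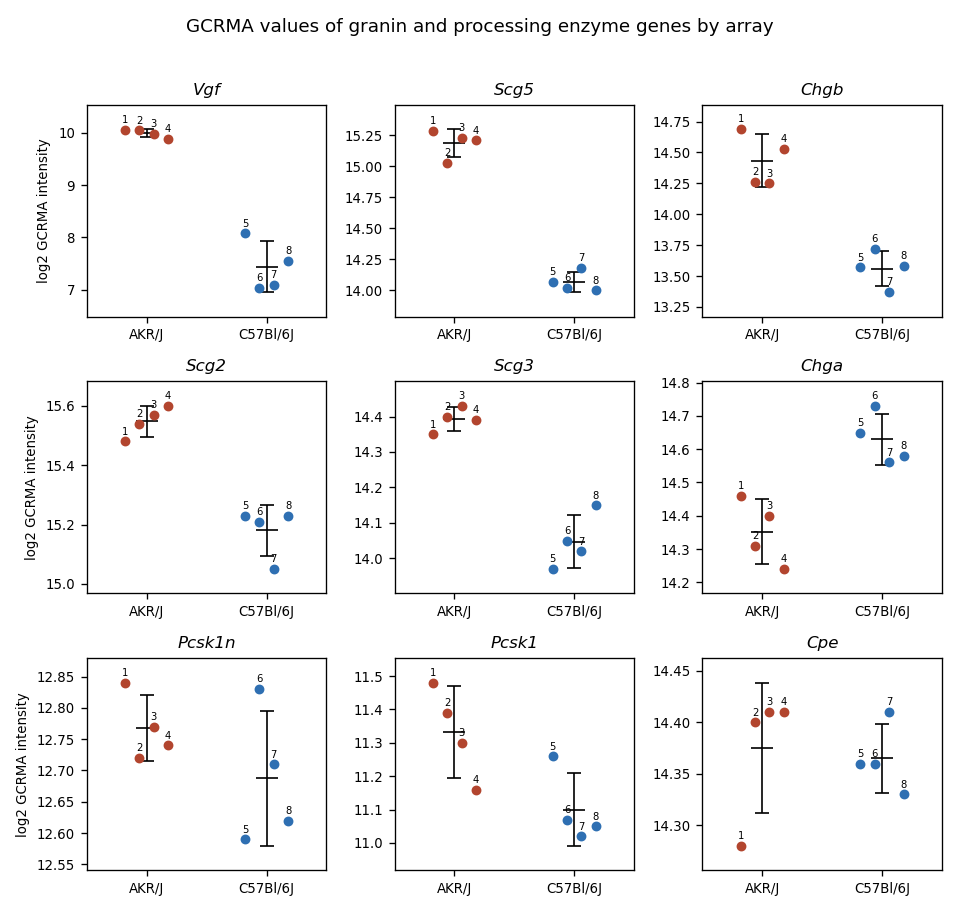
Log2 GCRMA intensity of 9 genes on each array, AKR/J (red, arrays 1 to 4) left of C57Bl/6J (blue, arrays 5 to 8), with mean and SD in black; each panel has its own axis, which does not start at 0. All AKR/J arrays lie above all C57Bl/6J arrays for Vgf, Scg5, Chgb, Scg2 and Scg3 and below them for Chga, and the strains overlap for Pcsk1n, Pcsk1 and Cpe.

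Vgf, a granin-like precursor of several neuroendocrine peptides, had the largest difference. Its log2 value was 10.06, 10.05, 9.98 and 9.89 on the AKR/J arrays, against 8.08, 7.04, 7.09 and 7.55 on the C57Bl/6J arrays. The strains did not overlap, and C57Bl/6J pools spread more (SD 0.48) than AKR/J pools (SD 0.08). The AKR/J level was 5.87-fold that of C57Bl/6J (log2 difference 2.55, SE 0.22, limma adjusted p = 0.000217). Among all genes tested, 24 had a larger excess in AKR/J. Vgf was dim in C57Bl/6J, where it was detected on 3 of 4 arrays. Its per-array signal was 755, 872, 909 and 1031 in AKR/J, against 314, 214, 108 and 275 in C57Bl/6J, with array 7 the lowest and the one not detected. The ratio of mean signals was 3.92, smaller than the GCRMA fold, and the strains did not overlap on this scale either.

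Chgb encodes chromogranin B, a main granin of islet granules. Log2 values were 14.69, 14.26, 14.25 and 14.53 in AKR/J, against 13.57, 13.72, 13.37 and 13.58 in C57Bl/6J. Every AKR/J array was above every C57Bl/6J array, by at least 0.53. It averaged 14.43 ± 0.22 in AKR/J islets, against 13.56 ± 0.15 in C57Bl/6J islets (SD, n = 4 each). This was 1.83-fold higher in AKR/J (SE 0.12 on the log2 scale, limma adjusted p = 0.003). The per-array signal gave much the same: 13495 ± 1983 in AKR/J and 7977 ± 500 in C57Bl/6J, a 1.69-fold ratio of means with no overlap.

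Chga encodes chromogranin A, the founding granin, and went the other way from Chgb. Arrays of AKR/J gave log2 values of 14.46, 14.31, 14.40 and 14.24, against 14.65, 14.73, 14.56 and 14.58 in C57Bl/6J. The strains did not overlap, but the gap between the highest AKR/J array and the lowest C57Bl/6J array was only 0.11. AKR/J islets had 1.21-fold less Chga signal by GCRMA (log2 difference -0.28, SE 0.07, limma adjusted p = 0.0414). This call depended on the processing. A further quantile normalization, which evens out the brightest values, left a log2 difference of -0.03 (limma adjusted p = 0.836). Leaving out any array except array 1 raised the adjusted p to between 0.0529 and 0.102. The per-array signal averaged 13384 ± 1061 in AKR/J, against 17841 ± 1259 in C57Bl/6J, with no overlap, yet after quantile normalization of the signals the difference was -0.12 (limma adjusted p = 0.502). Chga lay near the 99.9 percentile of both scales, which was lower in AKR/J too. Cpe and Scg3 were about as bright in AKR/J by GCRMA (14.38 and 14.39), with log2 differences of 0.01 and 0.34. The part of the lower percentile in the Chga difference was not tested.

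Scg2, the precursor of the peptide secretoneurin, was higher in AKR/J by GCRMA. The log2 values were 15.48, 15.54, 15.57 and 15.60 in AKR/J, against 15.23, 15.21, 15.05 and 15.23 in C57Bl/6J. The difference was 0.37 (SE 0.07, limma adjusted p = 0.00944), 1.29-fold, and the strains did not overlap. On the per-array signal scale the strains did overlap, at 19015, 19065, 16206 and 18253 in AKR/J against 16004, 17777, 17172 and 19352 in C57Bl/6J. Before quantile normalization the ratio of mean signals was 1.03. After quantile normalization of these signals the log2 difference was 0.41 (limma adjusted p = 0.0213).

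Scg3 encodes secretogranin III, which binds chromogranin A and the granule membrane. On the log2 scale it was at 14.35, 14.40, 14.43 and 14.39 in AKR/J, against 13.97, 14.05, 14.02 and 14.15 in C57Bl/6J. The AKR/J arrays lay within 0.08 of each other and all above the C57Bl/6J arrays. The difference was 0.34 (SE 0.06, limma adjusted p = 0.00898), 1.27-fold. With the quantile-normalized signals it was 0.14 and did not pass (limma adjusted p = 0.39), and the raw signals overlapped between strains.

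Scg5 and Pcsk1n encode the partners of the convertases. Scg5 is a chaperone that the convertase encoded by Pcsk2 needs to mature, and part of it also inhibits that enzyme. Its log2 value was 15.29, 15.03, 15.23 and 15.21 in AKR/J, against 14.07, 14.02, 14.18 and 14.00 in C57Bl/6J. The lowest AKR/J array was 0.86 above the highest C57Bl/6J array. It averaged 15.19 ± 0.11 in AKR/J islets, against 14.07 ± 0.08 in C57Bl/6J islets (SD, n = 4 each). Scg5 was 2.18-fold higher in AKR/J (SE 0.08 on the log2 scale). Its limma adjusted p of 7.77e-05 was the smallest among the 9 genes. Among all genes tested, 161 had a larger excess in AKR/J. The per-array signal was 13023, 12065, 11036 and 12638 in AKR/J, against 7944, 7732, 8722 and 8217 in C57Bl/6J. These signals did not overlap.

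Pcsk1n encodes proSAAS, a granin-like inhibitor of the convertase that Pcsk1 encodes. Its log2 value was 12.84, 12.72, 12.77 and 12.74 in AKR/J, against 12.59, 12.83, 12.71 and 12.62 in C57Bl/6J. C57Bl/6J array 6 lay above 3 of the 4 AKR/J arrays, and the strains overlapped. The log2 difference was 0.08, with a 95% interval of -0.09 to 0.25 (limma adjusted p = 0.502).

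The enzymes measured, Pcsk1 and Cpe, did not pass, and Pcsk2 was not analysed. Pcsk1 makes the first cuts in proinsulin. Pcsk1 had log2 values of 11.48, 11.39, 11.30 and 11.16 in AKR/J, against 11.26, 11.07, 11.02 and 11.05 in C57Bl/6J. Only C57Bl/6J array 5 reached into the AKR/J range, above AKR/J array 4. The difference was 0.23, with a 95% interval of 0.02 to 0.44, and failed after adjustment (limma adjusted p = 0.132). Cpe, carboxypeptidase E, was at 14.28, 14.40, 14.41 and 14.41 in AKR/J, against 14.36, 14.36, 14.41 and 14.33 in C57Bl/6J. Its log2 difference was 0.01, with an interval of -0.13 to 0.15 (limma adjusted p = 0.906). The per-array signal of Cpe did not overlap between strains, at 11300 to 12930 in AKR/J, against 13185 to 14988 in C57Bl/6J. After quantile normalization of the signals the difference was -0.0046 (limma adjusted p = 0.983). The further quantile normalization of the GCRMA values gave 0.22 (limma adjusted p = 0.07). That setting also moved Scg3 from 0.34 to 0.47 and Chgb from 0.87 to 0.97. Scg5 went from 1.12 to 1.11 and Pcsk1n from 0.08 to 0.06.

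**Figure D2:**
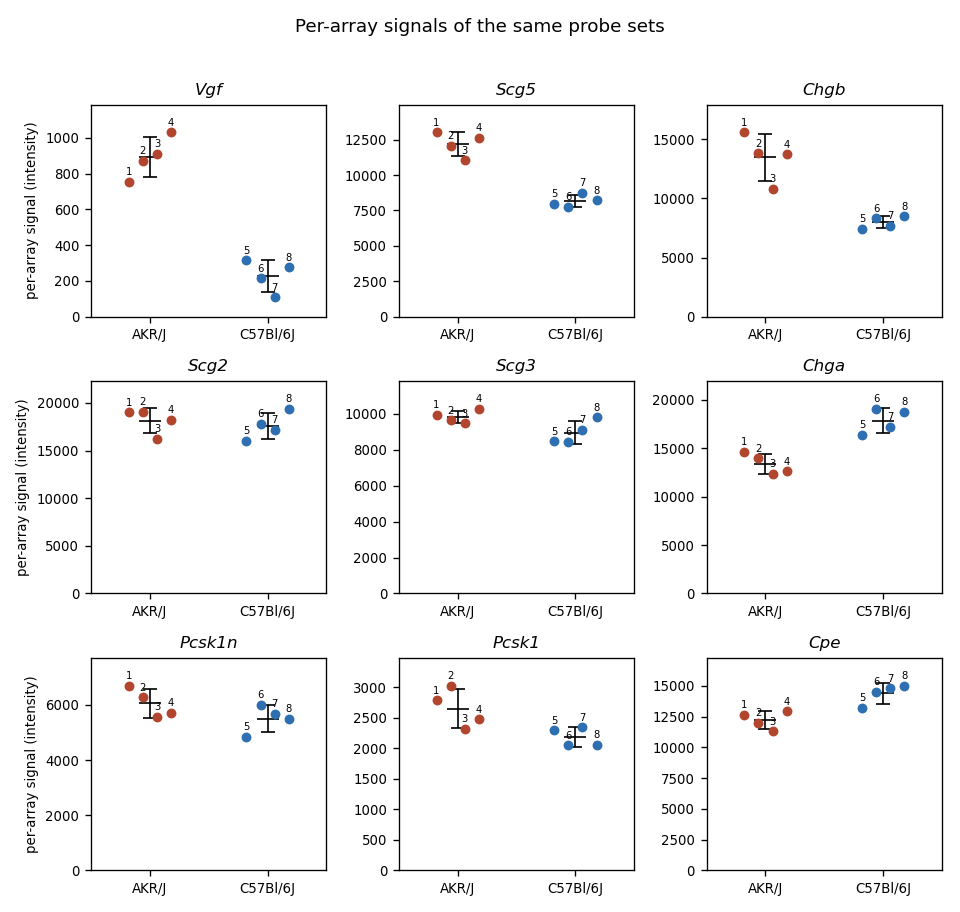
Per-array signal, on a linear axis from 0, of the same 9 probe sets, AKR/J (red) left of C57Bl/6J (blue), with array numbers and mean and SD in black. Vgf, Scg5 and Chgb are higher on every AKR/J array, Chga and Cpe are lower on every AKR/J array, and the strains overlap for Scg2, Scg3, Pcsk1n and Pcsk1.

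With quantile-normalized MAS5-type signals, 4 of the 9 genes were higher in AKR/J (Vgf, Scg5, Chgb and Scg2) and 0 were lower, against 12.0% of all genes past the threshold in either direction. At an unadjusted p under 0.05 in the same limma fit, 0 were lower too. The log2 difference of Scg5 was 0.69 by these signals and 1.12 by GCRMA, that of Vgf 2.06 and 2.55, and that of Chgb 0.90 and 0.87. Each gene rested on 1 tested probe set. Where the strains differ in sequence under a probe, its values cannot separate that from transcript level.

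**Figure D3:**
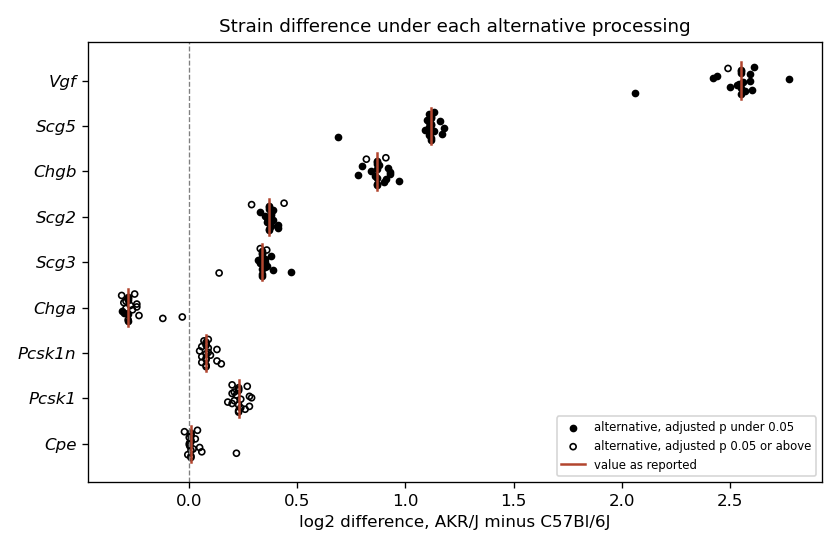
Log2 difference, AKR/J minus C57Bl/6J, of each gene under the alternative settings, filled where the limma adjusted p was under 0.05 and open otherwise, with a red line at the value reported above. Points of Scg5 are all filled and run from 0.69 to 1.18, those of Vgf run from 2.06 to 2.77 with 1 open, and most of those of Chga, from -0.31 to -0.03, are open.

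**Figure D4:**
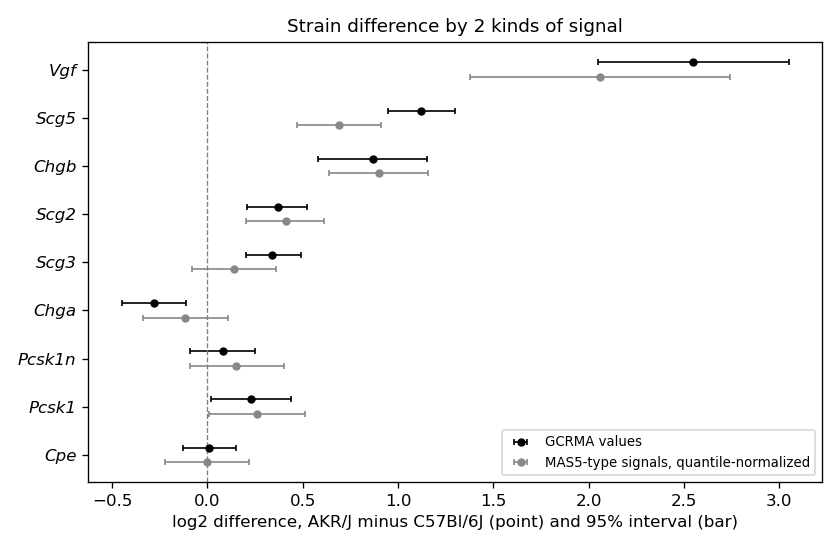
Log2 difference, AKR/J minus C57Bl/6J, with its 95% interval for 9 genes by GCRMA (black) and by quantile-normalized per-array signals (grey). Intervals of Vgf, Scg5, Chgb, Scg2 and Pcsk1 lie above 0 by both, and those of Chga and Scg3 reach 0 only by the per-array signals.

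Genes around them in the pathway were compared by lists chosen for function. Of 14 other tested convertases, carboxypeptidases and peptide-modifying enzymes, 1 was higher in AKR/J, 1 was lower and 12 did not pass (median log2 difference 0.02). The higher one was Qpct, which forms pyroglutamate at peptide ends and was not detected on any C57Bl/6J array. It was 1.91-fold higher (log2 difference 0.94, SE 0.23, limma adjusted p = 0.0315). A floor at the lowest detected value of each array left this fold at 1.91, so it is an estimate and not a minimum. Qpct lost the call when any 1 of 7 arrays was left out (limma adjusted p up to 0.0859). The lower one was the aminopeptidase gene Rnpep (1.55-fold, limma adjusted p = 0.0167), which did not pass with the MAS5-type signals (adjusted p = 0.109).

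Of 22 tested granule membrane and granule biogenesis genes, 2 were higher in AKR/J, 1 was lower and 19 did not pass (median -0.02). Ptprn, a membrane protein of dense-core granules, averaged 10.71 ± 0.18 in AKR/J islets, against 10.11 ± 0.27 in C57Bl/6J islets (SD, n = 4 each). It was 1.52-fold higher (limma adjusted p = 0.033). The SNARE gene Vti1a was 1.28-fold higher (adjusted p = 0.0177) and Vps41, a trafficking gene, 1.27-fold lower (adjusted p = 0.0378). Ptprn and Vps41 each lost the call when any 1 of 6 arrays was left out (limma adjusted p up to 0.08 and 0.0991). Vti1a lost it when either of 2 arrays was left out (limma adjusted p up to 0.0503). Vti1a and Vps41 each had 3 tested probe sets, of which only the brightest is given.

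Of 15 tested precursors of peptide hormones and neuropeptides, the substrates of this machinery, 3 were higher in AKR/J, 4 were lower and 8 did not pass (median 0.19). Nucb2, the precursor of nesfatin, averaged 12.98 ± 0.29 in AKR/J islets, against 12.08 ± 0.18 in C57Bl/6J islets (SD, n = 4 each). It was 1.87-fold higher (limma adjusted p = 0.00754). Gal, the galanin precursor, averaged 3.08 ± 0.01 in AKR/J islets, where 2 of 4 arrays detected it, against 6.51 ± 0.20 in C57Bl/6J islets. The log2 difference was -3.43 (limma adjusted p = 9.22e-07), and -2.73 with the MAS5-type signals (limma adjusted p = 0.000246). No fold is given, since Gal was at the edge of detection in AKR/J. Ucn3, which encodes urocortin 3 and is also among the beta cell markers above, was lower but did not pass with the MAS5-type signals (adjusted p = 0.389). Ppy, the PP cell marker above, and Tac1 were the other higher ones. Npy and Penk were the other lower ones. In this list, these 4 were named after their values were seen. Each of these 4 lost its call on leaving out each of at least 6 arrays in turn.

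Of 8 tested transcription factors known for sites in granin or convertase genes, Neurod1 was 1.25-fold lower in AKR/J (limma adjusted p = 0.0338), 0 were higher and 7 did not pass (median -0.29). At an unadjusted p under 0.05, 0 were higher and 2 lower by GCRMA, against 1 higher and 0 lower by the MAS5-type signals. By those signals Neurod1 did not pass (adjusted p = 0.33). By GCRMA it lost the call when any 1 of 5 arrays was left out (adjusted p up to 0.0904). Creb1, which encodes the factor that binds the palindrome shown above, averaged 8.17 in AKR/J, against 8.43 in C57Bl/6J (limma adjusted p = 0.319). It is named outside the rule for named genes, because of the motif. Creb1 had 3 tested probe sets and Neurod1 had 2, of which only the brightest is given.

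**Figure D5:**
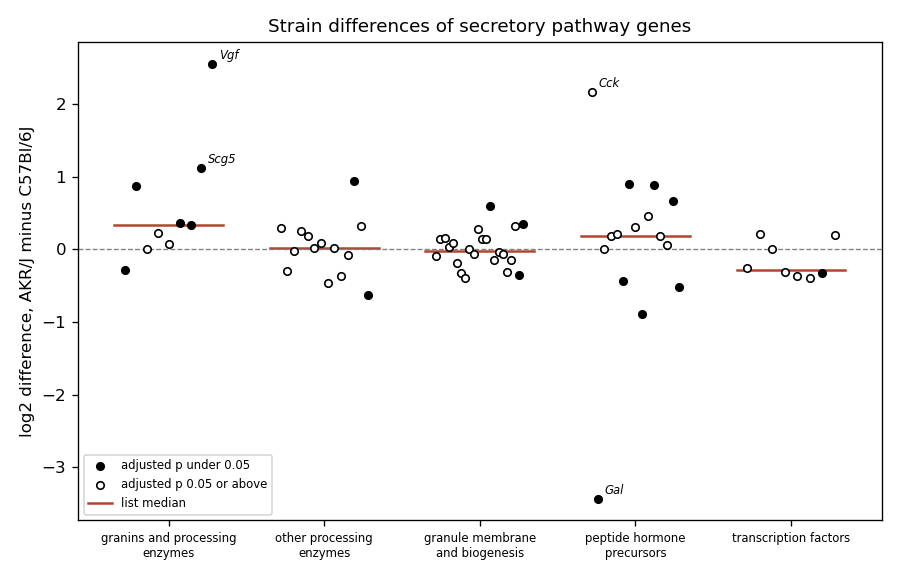
Log2 difference, AKR/J minus C57Bl/6J, of each tested gene in 5 lists, filled where the adjusted p was under 0.05, with the list median as a red line and genes beyond a difference of 1 named. The median of the granins and processing enzymes is 0.34, and those of the other lists run from -0.29 to 0.19.

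The 9 genes lie on 8 chromosomes, with Chgb and Scg5 both on chromosome 2. In the gene order of GRCm38.p6, the 5 nearest tested genes on each side of each member were examined. Of these 90 neighbours, 18 passed the threshold, 7 higher and 11 lower in AKR/J, where 16.3% of all genes passed. Beside Chgb, 1 of 10 neighbours was called, lower in AKR/J, and beside Scg5 1 was higher and 2 were lower. The adjacent tested genes of Chgb, Shld1 and Trmt6, had log2 differences of 0.14 and -0.15, and those of Scg5, Grem1 and Arhgap11a, of 0.08 and 0.65, none past the threshold.

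Over the 8 arrays, the genes whose log2 values ran most like those of Vgf were Ssr4, Cks2, Nudcd3, Shoc2 and Th, with Pearson r between 0.9856 and 0.9881. The points share the 2 strains, so this likeness is mostly that of the strain means and is given as a description.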

How the data were processed

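Titles gave each sample's strain. Deposited intensity values in the value table are linear, and GCRMA is named in the submitters' processing notes; log2 was taken here. Files of single arrays hold a signal of MAS5 type, also an intensity, with a detection p-value, per the file headers. Detected means a detection p under 0.05. Genome build and software versions of the authors' steps are not given in the sources used here.

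Of 45101 probe sets, 64 controls were left out, and 20772 detected on at least 4 of 8 arrays were tested. Platform annotation names 1 symbol for 34945 probe sets. AKR/J minus C57Bl/6J was fitted to all tested probe sets with lmFit and eBayes of limma 3.58.1 in R 4.3.3, two-sided, and adjusted by Benjamini-Hochberg over all of them. A gene was counted by its brightest tested probe set. A probe set undetected on all arrays of the dimmer strain has a fold bound, computed with the lowest detected value of each array as a floor. Named genes were all members, up to 3 per list with the smallest p, and the 5 most like the member with the largest difference. Members and lists were chosen with earlier results of these data known. Alternatives were other filters, MAS5-type signals floored at the 5th percentile and quantile-normalized, other scalings, variance models, array weights, probe set means, adjustment over genes and each array left out. Python 3.11.15 and matplotlib 3.10.9 drew the figures.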

Additional observations from a re-analysis of the deposited data

Results flagged for a closer look

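Of 40 groups of 4 arrays examined (10 probe sets, 2 kinds of signal and 2 strains), 3 held an array far from the other 3, where chance flags about 1 in 20 groups. Cpe was at 14.28 on AKR/J array 1, below the nearest other AKR/J value of 14.40. The undetected Cpe probe set was at 2.14 on the same array, above the nearest value of 1.70. Scg2 was at 15.05 on C57Bl/6J array 7, below the nearest value of 15.21; without that array its log2 difference was 0.33, the lowest of the 8 values with an array left out, which reached 0.39 (limma adjusted p = 0.0171 without array 7).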

How the results depend on the processing

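Direction was kept in every alternative run for all 9 genes except Cpe, whose near-zero difference turned to -0.0046 with the MAS5-type signals and to -0.02 with arrays 1, 2, 5 and 6 alone. Scg5 kept its call in all 20 alternatives (log2 difference 0.69 to 1.18). Vgf could not be fitted with detection on all 8 arrays; it lost its call in 1 of its 19 alternatives, and its difference ran from 2.06 to 2.77. Chgb and Scg2 lost theirs in 2 of 20 and Scg3 in 3 of 20. The single lower call, Chga, became 0 in 4 settings: with detection on all 8 arrays its difference stayed at -0.28 (limma adjusted p = 0.0546), with arrays centred on their medians it was -0.23 (0.0843), with the MAS5-type signals -0.12 (0.502) and with the further quantile normalization -0.03 (0.836). The count was 0 to 1 with each array left out. The second principal component, 13.7% of the variance, separated arrays 1, 2, 5 and 6 from 3, 4, 7 and 8 in both strains; no label names this split, and fits by it were chosen after seeing the data. As an added term it kept the same 6 calls among the 9 genes. With arrays 1, 2, 5 and 6 alone, 1054 probe sets passed in place of 2968, 1 of the 9 genes was called, it was higher and 0 were lower. With arrays 3, 4, 7 and 8 alone, 403 probe sets passed, 2 genes were called, both higher, and 0 were lower; these fits have fewer arrays. In them the differences of Vgf were 2.49 and 2.61, of Scg5 1.11 and 1.13 and of Chgb 0.82 and 0.91. No paired analysis was possible because the titles share no replicate number between the strains. Means over probe sets and adjustment over 1 probe set per gene were also run. The counts of the other lists moved too: precursors called higher ran from 1 to 5 and lower from 1 to 4 (1 with the MAS5-type signals), granule genes 0 to 2 each way, other processing enzymes 0 to 2 each way, and transcription factors called lower 0 to 1 (0 with arrays centred on their medians).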

Other observations

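Th, the enzyme that makes the precursor of dopamine, stood among the markers of nerve and chromaffin cells and averaged a log2 value of 9.44 ± 0.11 in AKR/J islets, against 6.86 ± 0.19 in C57Bl/6J islets (SD, n = 4 each). It was 5.98-fold higher in AKR/J (limma adjusted p = 6.42e-06). Its log2 difference was 2.58 by GCRMA and 2.24 by the MAS5-type signals. The other markers of that list did not move with it. Of 6 tested, Th was the only one higher, Uchl1 was 3.83-fold lower (limma adjusted p = 0.00151) and 4 did not pass. The list's summed intensity lay between 811 and 932 in AKR/J, against 371 to 456 in C57Bl/6J. In AKR/J most of this sum came from Th, so it does not describe the list as a whole. Uchl1 averaged 5.23 in AKR/J, against 7.17 in C57Bl/6J, and Nefm 6.60, against 6.88 (limma adjusted p = 0.0767). Besides Th, only Nefl had a positive log2 difference (0.11, limma adjusted p = 0.432).

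Vgf had more neighbours past the threshold than any other of the 9 genes, 5 of 10, where 16.3% of all genes passed. On one side, 4 genes in a row were higher in AKR/J: 4933404O12Rik (log2 difference 0.89, limma adjusted p = 0.000775), Fis1 (0.33, 0.0166), Cldn15 (0.60, 0.0274) and Znhit1 (0.47, 0.0206). The adjacent genes Plod3 (0.42, 0.058) and Ap1s1 (-0.13, 0.181) did not pass, and Trim56, beyond Ap1s1, was lower (-0.56, 0.0236). These genes, and Vgf as the member with the highest count, were singled out after their values were seen. The Vgf difference of 2.55 was larger than that of any of these neighbours. A link between their differences and that of Vgf was not tested.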
